A study of Mus musculus with 43 samples.

Results

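Bdnf and Ntrk2 encode the secreted neurotrophin BDNF and its receptor TrkB. They were followed here as the 2 rows of a table of 10127 genes whose Ensembl identifiers, ENSMUSG00000048482 and ENSMUSG00000055254, carry those symbols. The libraries came from laser-captured hypothalamic nuclei of adult male C57/BL6 mice, all with a paternal deletion of the Snord116 cluster (B6(Cg)-Snord116tm1.1Uta/J) and either fed ad libitum or kept without food for 24 hours. The ventromedial hypothalamus (VMH) gave 6 fasted and 5 fed libraries, the arcuate nucleus (ARC) 4 and 5, the dorsomedial hypothalamus (DMH) 5 and 6, and the paraventricular nucleus (PVN) 5 and 5. These 41 libraries came from 12 mice, most of which gave several nuclei, and were handled in 3 batches. Libraries carry the name of the nucleus followed by the number of the mouse, as in VMH-111. The deletion was present in fed and fasted mice alike and no wild-type library entered, so every value describes mice with this deletion. Snord116 itself was not analysed here.

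BDNF is made as a precursor, cleaved by proprotein convertases and released from neurons, in part in response to activity. The mature form binds TrkB, which signals through Shc and Grb2 adaptors to the MAP kinase, phosphoinositide 3-kinase and phospholipase C pathways. Neurons make the full-length receptor, while astrocytes carry mainly a truncated form without the kinase. In the hypothalamus BDNF is known to restrain feeding, and partial or conditional loss of either gene in mice can lead to overeating and obesity. A value per gene cannot separate full-length from truncated TrkB, nor one Bdnf transcript from another. In tissue pieces of this kind, fewer expressing cells and less RNA per cell cannot be told apart.

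Bdnf lies at chr2:109674700-109727007 on the plus strand of GRCm38, with 11 annotated transcripts, all of them coding, that cover 6217 exonic bases. Ntrk2 lies at chr13:58806569-59133970 on the plus strand, with 10 transcripts, 7 of them coding, over 19292 exonic bases. A gene on the opposite strand, Gm45346, spans 1139 of the Bdnf exonic bases, and 4930415C11Rik, also opposite, spans 235 of those of Ntrk2. The use of strand in counting is not given in the sources used here, so reads from these antisense genes cannot be told apart from those of the members.

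Bdnf is transcribed from several alternative first exons, and its gene-level value sums over them. RefSeq (GRCm38.p6) gave 7 separate transcription starts for Bdnf and 1 for Ntrk2. The 250 bases before each start were searched on both strands for TGACGTCA, the full cAMP response element bound by CREB. They were also searched for its part TGACG (any TGACGTCA also counts as a TGACG) and for CACGTG, the E-box bound by USF proteins. Of that regulator family, Usf2 is given below. TGACGTCA and CACGTG were in none of the 8 windows, against 1.55% and 6.02% of 32851 windows of all genes. TGACG was in 1 of the 7 Bdnf windows and not in the Ntrk2 window, against 17.8% of all windows. The Bdnf window with the match, at chr2:109692186-109692435, and the Ntrk2 window, at chr13:58806319-58806568, are shown because the levels reported here are summed output of such starts. Both are plus strand, 5′ to 3′, and the capitals mark CGTCA, the reverse complement of TGACG, which begins at position -35 from the start at 109692436.
Bdnf: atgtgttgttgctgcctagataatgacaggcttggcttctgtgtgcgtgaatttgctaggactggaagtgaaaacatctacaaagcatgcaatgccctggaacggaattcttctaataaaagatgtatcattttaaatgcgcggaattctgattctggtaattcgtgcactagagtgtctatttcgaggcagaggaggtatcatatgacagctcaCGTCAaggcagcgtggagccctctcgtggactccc
Ntrk2: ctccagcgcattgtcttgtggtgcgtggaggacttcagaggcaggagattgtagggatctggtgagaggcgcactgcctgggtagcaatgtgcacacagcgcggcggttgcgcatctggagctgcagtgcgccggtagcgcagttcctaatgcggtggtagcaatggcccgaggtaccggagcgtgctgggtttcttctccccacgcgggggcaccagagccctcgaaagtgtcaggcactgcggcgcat

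Values are CPM, the reads of a gene scaled to a fixed total per library, which corrects for depth and not for gene length. The depth was 1.94 M reads (M, mega) in the shallowest library, 4.10 M in the median one and 8.23 M in the deepest. The labelled nuclei were checked by their markers. Fezf1, a transcription factor of the VMH, was at 172–256 CPM in VMH libraries and at most 21.9 CPM elsewhere. Npy, the ARC feeding peptide, was at 195–1226 CPM in ARC and at most 33.4 CPM elsewhere, in a DMH library. Avp, the vasopressin gene, was at 395–1475 CPM in PVN and at most 10.04 CPM elsewhere. Npvf, a DMH neuropeptide, was at 56.5–225 CPM in DMH and at most 6.30 CPM elsewhere.

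In the VMH, Bdnf was at 33.3 ± 8.46 CPM (SD, n = 11), and fed and fasted mice differed by less than the spread within each group. The 5 fed libraries held 38.1 CPM (VMH-111), 18.8 CPM (VMH-125), 35.0 CPM (VMH-127), 37.6 CPM (VMH-308) and 42.8 CPM (VMH-313). The 6 fasted libraries held from 19.6 CPM (VMH-311) to 43.7 CPM (VMH-85), with a median of 34.5 CPM. Each state had 1 low library, VMH-125 and VMH-311, and all other VMH libraries lay at 25.7 CPM or above, so the groups overlapped along nearly their whole range. Each VMH value of Bdnf rested on 38 to 253 reads, with a median of 131.

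The fasting change of Bdnf in the VMH was -0.10 ± 0.26 (SE) on the log2(CPM + 0.5) scale, with a 95% confidence interval from -0.64 to 0.43. In limma fitted over all genes, its Benjamini-Hochberg adjusted p was 0.976. The threshold used throughout was an adjusted p under 0.1, which 2 of 9594 genes passed in the VMH (0.0208%). The interval leaves room for a fall or a rise of up to those bounds. Within the 3 batches the difference was -0.18, 0.42 and -0.57, so it had no common direction. The sign turned without fasted VMH-311 (0.09) and with depth as a covariate (0.05).

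Ntrk2 was abundant in the VMH, at 891 ± 88.6 CPM (SD, n = 11), or 1695 to 6041 reads a library. The fed libraries held 731 CPM (VMH-111), 887 CPM (VMH-125), 941 CPM (VMH-127), 759 CPM (VMH-308) and 1022 CPM (VMH-313). The fasted libraries ran from 828.5 to 958 CPM with a median of 924 CPM, all inside the fed range. The fasting change of Ntrk2 was 0.09 ± 0.08, with an interval from -0.08 to 0.26 and an adjusted p of 0.905 in limma. Within batches it was 0.35, 0.05 and -0.05. It was 0.0019 without fed VMH-111, 0.05 without fed VMH-308 and 0.17 without fed VMH-313.

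Ntrk2 is also an astrocyte transcript, and the summed CPM of 6 measured astrocyte markers of 10 listed was 997–1140 in fasted and 852–1014 in fed VMH libraries. None of these 6 markers averaged under 1 CPM in either state. Most of the sum was 1 gene, Atp1b2, at a mean of 750 of 998 CPM in VMH. The same held in ARC (445 of 632 CPM), DMH (786 of 1077 CPM) and PVN (537 of 802 CPM), so the astrocyte sums given below are largely this gene. The part of the difference between fasted and fed sums in the Ntrk2 values was not tested.

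**Figure D1:**
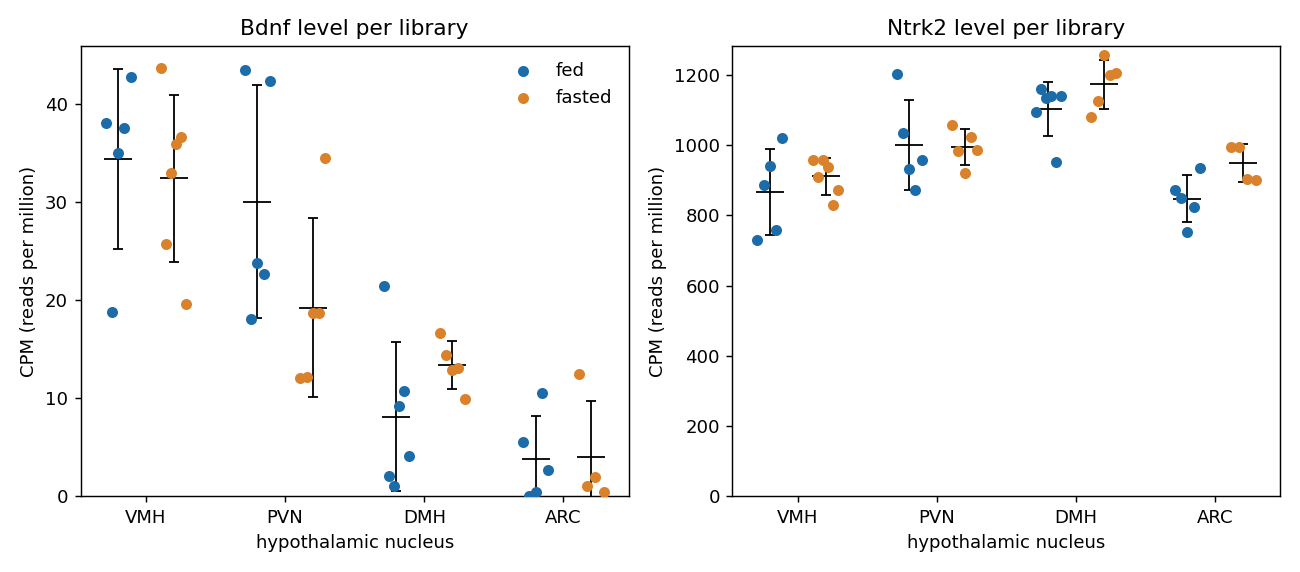
CPM of Bdnf (left) and Ntrk2 (right) in each of the 41 libraries by nucleus, fed in blue and fasted in orange. Points are libraries, horizontal dashes are group means and error bars are 1 SD, which the axis cuts at 0 for Bdnf in ARC. The Bdnf points of VMH, from 18.8 to 43.7 CPM, lie above all ARC points, while Ntrk2 is highest in DMH.

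Outside the VMH, Bdnf passed the threshold for fasting in no nucleus. In the ARC it was low, with a median of 7 reads a library. The fasted libraries held 1.07 CPM (ARC-100), 1.97 CPM (ARC-305), 0.402 CPM (ARC-311) and 12.5 CPM (ARC-86). The fed libraries held 5.49 CPM (ARC-111), 0 CPM (ARC-125), 0.456 CPM (ARC-127), 10.6 CPM (ARC-308) and 2.70 CPM (ARC-313). In each state 1 library stood well above the rest, ARC-86 among the fasted and ARC-308 among the fed, and these had 41 and 51 reads where the other ARC libraries had 0 to 17. Library ARC-125 had no Bdnf read, which allows up to 0.508 CPM at 3 reads.

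VMH tissue carries high Fezf1, and that marker was at 0.608 CPM in ARC-86 and 1.87 CPM in ARC-308. The summed oligodendrocyte markers (9 measured of 10 listed) were 785 and 851 CPM in these libraries, within an ARC range of 335–851 CPM that ARC-308 tops. The summed astrocyte markers of ARC-86, at 869 CPM, were the highest of the ARC. The part of these cell types in the Bdnf values was not tested. The fasting change of Bdnf in the ARC was -0.30 ± 0.72, with an interval from -1.80 to 1.20 and an adjusted p of 0.934 in limma, where 17 of 9654 genes passed (0.176%). Within batches it was 1.12, 1.19 and -1.99, and the sign turned without fasted ARC-311 (0.27) or fed ARC-308 (0.34).

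In the DMH, all 5 fasted Bdnf values lay above the fed median of 6.66 CPM, yet the ranges overlapped. The fasted libraries held 14.5 CPM (DMH-100), 12.9 CPM (DMH-101), 13.1 CPM (DMH-305), 9.93 CPM (DMH-311) and 16.6 CPM (DMH-86). The 6 fed libraries ran from 1.04 CPM (DMH-125) to 21.5 CPM (DMH-92). The fasted values were thus closely grouped, with an SD of 2.44 CPM, against 7.61 CPM among the fed. The change was 1.28 ± 0.55, with an interval from 0.14 to 2.41, an unadjusted p of 0.0299 and an adjusted p of 0.727 in limma, so it did not pass. Only 1 of 9751 genes passed in the DMH (0.0103%), while 6.62% had an unadjusted p under 0.05. Within batches the difference was 1.19, 1.87 and 0.73, the same direction in all 3. It was 0.81 without fed DMH-125, 1.59 without fed DMH-92, and 3.01 with depth as a covariate.

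Crh, the corticotropin-releasing hormone gene and a PVN marker, was at 1.76–6.40 CPM in fasted and 0–2.32 CPM in fed DMH libraries, against 14.5–126 CPM in PVN. Avp, the other measured PVN marker, was at 1.11–3.77 CPM in fasted and 0.385–2.73 CPM in fed DMH libraries, against 395–1475 CPM in PVN. The part of PVN tissue in the DMH values of Bdnf was not tested. Library DMH-92, fed and with the highest Bdnf level there, also had the highest summed oligodendrocyte (1714 CPM) and astrocyte markers (1409 CPM) of the DMH.

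In the PVN, Bdnf lay in the other direction. The fasted libraries held 12.2 CPM (PVN-100), 18.7 CPM (PVN-101), 18.7 CPM (PVN-305), 34.5 CPM (PVN-311) and 12.1 CPM (PVN-86). The fed libraries held 43.5 CPM (PVN-111), 18.0 CPM (PVN-125), 23.8 CPM (PVN-127), 22.7 CPM (PVN-308) and 42.3 CPM (PVN-313). The ranges overlapped, and only 2 fasted libraries fell below all fed ones. The change was -0.65 ± 0.30, with an interval from -1.28 to -0.02, an unadjusted p of 0.0440 and an adjusted p of 0.495 in limma, where 35 of 9529 genes passed (0.367%) and 9.97% had an unadjusted p under 0.05. Within batches it was -1.80, -0.44 and -0.28. The value for batch 1 compares 1 fasted with 1 fed library, and without either of these, PVN-86 or PVN-111, the change was -0.36. Fezf1, the VMH marker, was at 3.23–21.9 CPM in fasted and 2.89–7.37 CPM in fed PVN libraries, and its part in the Bdnf values was not tested.

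Whether the fasting change of Bdnf differed among the nuclei was tested directly with an F-test on the fit over all libraries. The unadjusted p was 0.0785 and the adjusted p 0.933 in limma, so a difference among the nuclei was not shown. This F-test covers all nuclei at once and does not single out a pair. Whether the changes in DMH and PVN, of opposite sign, differed from each other was not tested. For the VMH change against the mean change of the other nuclei, the difference was -0.37 ± 0.62 (adjusted p = 0.988). No gene of 10121 passed the F-test in limma (0%), although 522 genes (5.16%) had an unadjusted p under 0.05.

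Ntrk2 passed the fasting threshold in no nucleus either. In the ARC the fasted libraries held 994 CPM (ARC-100), 904 CPM (ARC-305), 901 CPM (ARC-311) and 996 CPM (ARC-86). The fed ARC libraries held 873 CPM (ARC-111), 850 CPM (ARC-125), 752 CPM (ARC-127), 825 CPM (ARC-308) and 936 CPM (ARC-313). All 4 fasted ARC libraries lay above the fed median and 2 above all fed ones. The change there was 0.16 ± 0.08, with an interval from -0.01 to 0.33, an unadjusted p of 0.0677 and an adjusted p of 0.636 in limma, and it was 0.19, 0.31 and 0.04 within batches. Without fasted ARC-100 it was 0.09.

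In the DMH, Ntrk2 was at 1127 CPM (DMH-100), 1257 CPM (DMH-101), 1201 CPM (DMH-305), 1205 CPM (DMH-311) and 1081 CPM (DMH-86) in the fasted libraries. The fed DMH libraries ran from 953 CPM (DMH-308) to 1162 CPM (DMH-111), with a median of 1137 CPM. DMH-308 stood apart from the other fed libraries, all at 1096 CPM or above. The change in the DMH was 0.09 ± 0.07 (adjusted p = 0.878), and -0.06, 0.07 and 0.21 within batches. With depth as a covariate its sign turned, to -0.13, and it was 0.03 without fed DMH-308 and 0.14 without fasted DMH-86.

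In the PVN, Ntrk2 was at 985 CPM (PVN-100), 921 CPM (PVN-101), 1024 CPM (PVN-305), 986 CPM (PVN-311) and 1057 CPM (PVN-86) in the fasted libraries. The fed PVN libraries held 1204 CPM (PVN-111), 1034 CPM (PVN-125), 932 CPM (PVN-127), 874 CPM (PVN-308) and 958 CPM (PVN-313). The fasted values lay inside the fed range. The change was -0.00069 ± 0.08, with an interval from -0.17 to 0.16, and -0.19, -0.04 and 0.14 within batches. The F-test for a difference between nuclei gave Ntrk2 an unadjusted p of 0.564 and an adjusted p of 0.982.

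**Figure D2:**
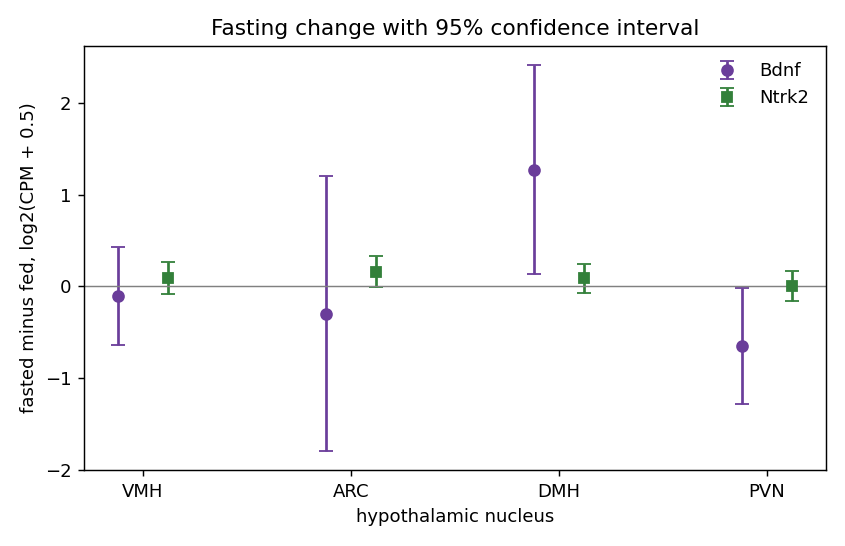
Fasting change (fasted minus fed, log2(CPM + 0.5), y axis) of Bdnf and Ntrk2 in each nucleus, as the limma estimate with its 95% confidence interval. The intervals of Ntrk2 are narrow and include 0, and those of Bdnf are widest in ARC, from -1.80 to 1.20. The DMH and PVN intervals of Bdnf lie on opposite sides of 0 before adjustment over all genes.

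Bdnf differed between the nuclei, which were compared over fed and fasted libraries together. The order was VMH (33.3 ± 8.46 CPM, SD, n = 11), PVN (24.7 ± 11.5 CPM, n = 10), DMH (10.5 ± 6.24 CPM, n = 11) and ARC (3.90 ± 4.65 CPM, n = 9). All 11 VMH libraries were above all 9 ARC libraries, as was so for 2.37% of genes. Of the VMH libraries, 9 were above every DMH library and 1 above every PVN library.

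In limma, VMH exceeded the mean of the other nuclei by 2.01 ± 0.31 on the log2 scale (adjusted p = 8.84e-07), in a comparison where 33.1% of genes passed in either direction. PVN was above the mean of the others by 1.38 ± 0.32 (adjusted p = 0.00108, against 22.0% of genes passing) and ARC below it, at -2.91 ± 0.33 (adjusted p = 1.54e-09, against 21.5%), or -2.21 with a pseudocount of 2. DMH was not separated from the mean of the others, at -0.48 ± 0.31 (adjusted p = 0.373, against 15.0%).

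Of the 6 pairs of nuclei, 5 differed in Bdnf. VMH exceeded ARC by 3.69 ± 0.40 (adjusted p = 1.47e-10), where 30.3% of genes passed. The ratio of mean CPM was 8.54, which is not the fitted difference, since the fit averages log values and the ARC mean is raised by ARC-86 and ARC-308. VMH exceeded DMH by 1.86 ± 0.38 (adjusted p = 0.000158), a ratio of 3.18, where 23.4% passed. VMH and PVN, neighbours in the order, did not differ beyond their spread, with a difference of 0.47 ± 0.39, an interval from -0.31 to 1.24 and an adjusted p of 0.411, where 31.3% passed. PVN was above DMH (DMH minus PVN -1.40 ± 0.39, adjusted p = 0.00865, 18.0% passing) and DMH above ARC (ARC minus DMH -1.83 ± 0.40, adjusted p = 0.000692, 18.0% passing). ARC minus PVN was -3.22 ± 0.41 (adjusted p = 1.86e-08, 16.7% passing). With a pseudocount of 2 the differences from ARC were smaller, at 2.91 for VMH minus ARC and -2.46 for ARC minus PVN, and with 0.1 larger, at 4.22 and -3.75.

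The batches kept the sign of these differences in Bdnf, with unequal sizes. VMH minus ARC was 2.01, 5.06 and 3.48 in the 3 batches, and VMH minus DMH was 1.85, 2.03 and 1.85. ARC minus DMH was only -0.16 in batch 1, against -3.03 and -1.63 in the others. Batch 1 held ARC-86 and ARC-111, whose mouse was the 1 of 9 with more Bdnf in ARC (5.49 CPM) than in DMH (2.05 CPM). VMH minus PVN was 0.59, 0.73 and 0.22. ARC minus PVN was -1.42, -4.32 and -3.26, and DMH minus PVN was -1.26, -1.30 and -1.63.

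Because most mice gave several nuclei, the order could also be read within a mouse. Bdnf was higher in VMH than in ARC in 9 of 9 mice and than in DMH in 10 of 10. It was higher in VMH than in PVN in 8 of 10 mice, the exceptions being the mice of VMH-111 (fed) and VMH-311 (fasted). Of the 9 mice with all 4 nuclei, 7 had their highest Bdnf value in VMH and 7 their lowest in ARC.

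**Figure D3:**
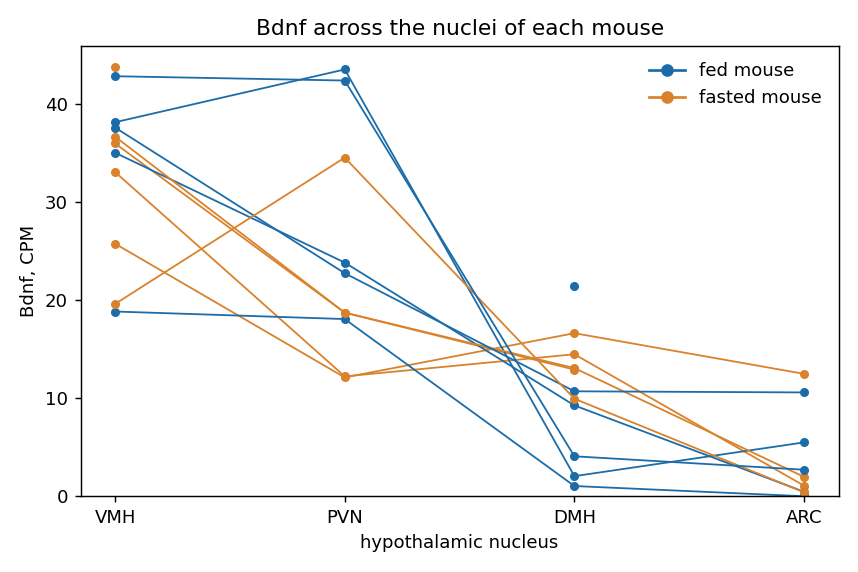
Bdnf CPM (y axis) in the nuclei of each mouse (x axis), with 1 line per mouse, fed in blue and fasted in orange; unconnected points are mice with 1 nucleus. Lines fall from VMH to DMH in 10 of 10 mice, and from VMH to PVN in 8 of 10.

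Other cell types differed between the nuclei as well. Summed oligodendrocyte markers were at 1226–1883 CPM in VMH, 335–851 in ARC, 542–1714 in DMH and 450–730 in PVN. Summed astrocyte markers were at 852–1140, 550–869, 808–1409 and 653–1069 CPM in the same order. Among transmitter genes, Slc17a6, the vesicular glutamate transporter of most hypothalamic excitatory neurons, was higher in VMH by 1.59, and the GABA genes Slc32a1 and Gad1 differed by -3.56 and -3.16. Mean Slc17a6 had the same order of nuclei as Bdnf, at 581 CPM in VMH, 358 in PVN, 188 in DMH and 118 in ARC. The mean sum of general neuron markers (2 measured of 7 listed) had another order, at 773 CPM in VMH, 744 in DMH, 505 in PVN and 481 in ARC. The mean astrocyte sum, most of it Atp1b2, was highest in DMH (1077 CPM, against 998 in VMH). The mean oligodendrocyte sum was highest in VMH (1450 CPM), as was Bdnf, and was higher in DMH (918 CPM) than in PVN (590 CPM). The part of these cell types in the Bdnf values was not tested.

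Ntrk2 varied much less between nuclei, and its highest level was in DMH. The order was DMH (1136 ± 79.0 CPM, SD, n = 11), PVN (997 ± 91.6 CPM, n = 10), ARC (892 ± 78.7 CPM, n = 9) and VMH (891 ± 88.6 CPM, n = 11). DMH was above the mean of the others by 0.30 ± 0.05 (adjusted p = 3.65e-06 in limma). Of the 11 DMH libraries, 10 were above every VMH library and above every ARC library, all but DMH-308.

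VMH was below the mean of the others, at -0.18 ± 0.05 (adjusted p = 0.00150), and so was ARC, at -0.16 ± 0.05 (adjusted p = 0.0187), while PVN was at 0.04 ± 0.05 (adjusted p = 0.610). VMH and ARC, next to each other in the order, did not differ beyond their spread, with a difference of -0.02 ± 0.06 and an interval from -0.14 to 0.10. DMH exceeded VMH with a ratio of mean CPM of 1.27 (VMH minus DMH -0.36 ± 0.06, adjusted p = 1.17e-06). DMH also exceeded ARC (ARC minus DMH -0.34 ± 0.06, adjusted p = 1.87e-05) and PVN (0.19 ± 0.06, adjusted p = 0.0154). VMH minus PVN was -0.17 ± 0.06 (adjusted p = 0.0204). ARC minus PVN, at -0.15 ± 0.06, passed narrowly (adjusted p = 0.0941) and lost the threshold in 16 of 41 refits that left out 1 library, with adjusted p values from 0.0515 to 0.239.

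Within batches, VMH minus DMH in Ntrk2 was -0.37, -0.32 and -0.37. DMH minus PVN was -0.02 in batch 1 and 0.27 and 0.22 in the others, so that difference did not hold in batch 1, which had 2 PVN libraries. VMH minus ARC was -0.12, 0.11 and -0.04, and VMH minus PVN was -0.39, -0.06 and -0.15. ARC minus DMH was -0.25, -0.44 and -0.33, and ARC minus PVN was -0.27, -0.17 and -0.11. Within mice, Ntrk2 was higher in DMH than in VMH in 10 of 10, than in ARC in 9 of 9 and than in PVN in 9 of 10, all but the mouse of DMH-111. Of the 6 measured astrocyte markers, 3 passed as higher in DMH than the mean of the others (8.20% of all genes did) and 5 as lower in ARC (11.7% of all genes). In VMH, where Ntrk2 was about level with ARC, Atp1b2 (0.38) and S100b (0.34) passed as higher and 1 marker, Sox9, as lower (-0.46, adjusted p = 0.0610 in limma). The Sox9 call was lost with mouse as a block (-0.38, adjusted p = 0.175), with library weights (-0.29, adjusted p = 0.223) and without VMH-85, VMH-86, VMH-111 or VMH-308 (-0.41 to -0.34). Their part in the Ntrk2 values was not tested.

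**Figure D4:**
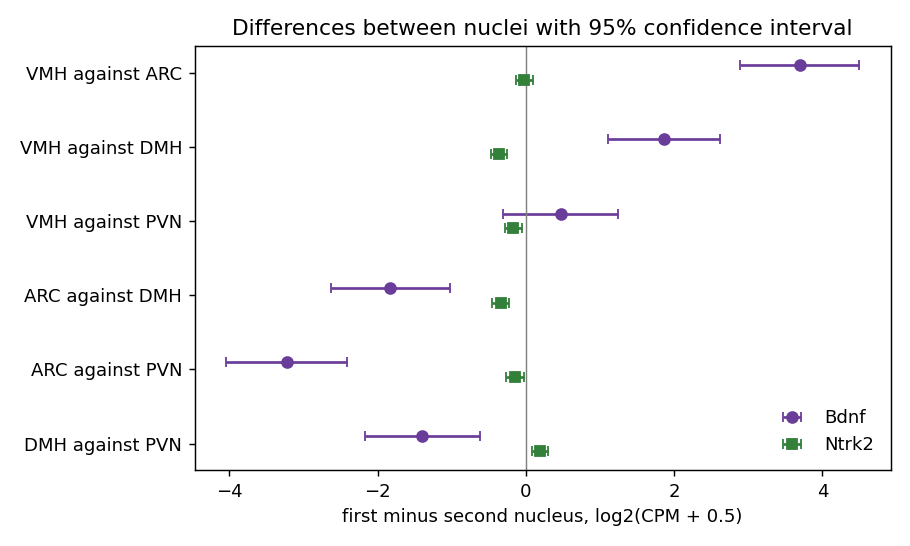
Differences between pairs of nuclei (first minus second, log2(CPM + 0.5), x axis) for Bdnf and Ntrk2, as limma estimates with 95% confidence intervals. Bdnf spans from -3.22 (ARC against PVN) to 3.69 (VMH against ARC), while Ntrk2 stays between -0.36 and 0.19.

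Levels of the 2 genes were compared with each other per exonic kilobase. On that scale, the mean level of Ntrk2 divided by that of Bdnf was 8.61 in VMH, 13.0 in PVN, 34.9 in DMH and 73.7 in ARC. Receptor transcript thus exceeded ligand transcript in all 4 nuclei, and the ratio was smallest in VMH, where the ligand was highest. These ratios assume that the annotated exons are the transcribed length and carry no test.

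Of the 5 listed neurotrophin ligands, Bdnf was the one measured. Of 8 listed receptors and sortilins, 7 were measured. None passed the threshold for fasting among the 7 tested in ARC, DMH and PVN or the 6 tested in VMH, where Ngfr was too low to test. Against the mean of the other nuclei, VMH was higher in 3 of these 7 and lower in 2. Sort1, the sorting receptor that binds the neurotrophin precursors, was at 167 ± 21.1 CPM in VMH (SD, n = 11) and differed by 0.76 ± 0.09 (adjusted p = 3.64e-10). Sorcs3, a sortilin relative, differed by 0.54 ± 0.12 (adjusted p = 0.000239), and Ntrk3, the receptor of neurotrophin-3, by 0.43 ± 0.10 (adjusted p = 0.000525).

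Ngfr, the low-affinity receptor p75, was lower in VMH, at 0.461 ± 0.247 CPM against 7.49 ± 2.80 CPM in ARC (n = 9) and 7.50 ± 4.98 CPM in DMH (n = 11), with a difference of -2.27 ± 0.30 from the mean of the others (adjusted p = 3.20e-08). That VMH level lies under what 3 reads amount to in the median library (0.732 CPM), so the size rests on the pseudocount, at -2.94 with 0.1 and -1.39 with 2. In PVN it was also low, at 1.73 ± 1.75 CPM (n = 10), and VMH minus PVN was -0.94 (adjusted p = 0.0571). Ntrk2 was the other lower member. Sorcs1 (0.25 ± 0.12, adjusted p = 0.110) and Sorcs2 (0.14 ± 0.17, adjusted p = 0.604) did not pass, though Sorcs1 did with library weights (0.27, adjusted p = 0.0723) and among genes averaging at least 5 CPM (adjusted p = 0.0951). With 5 of 7 passing, the list's share was 71.4% against 33.1% of all genes, and its median difference was 0.25 against -0.02 for all genes.

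Among 7 measured of 14 genes for processing and release of neurotrophin precursors, 3 passed in VMH against the others (42.9%, against 33.1% of all genes), with a median of -0.01 against -0.02 for all genes. Pcsk6, a proprotein convertase, was higher by 1.31 (adjusted p = 9.00e-05), and Cpe, carboxypeptidase E, was lower, at -0.18 (adjusted p = 0.00741), a call lost without the batch covariate (-0.21, adjusted p = 0.181). Vgf, a BDNF-induced secretory peptide precursor, was lower, at -1.55 (adjusted p = 3.82e-13). Of 21 measured of 43 TrkB adaptors and signalling enzymes, 8 were higher and 3 lower in VMH (52.4% passing), where 16.4% of all genes were higher and 16.7% lower, and the list's median was 0.12. Slitrk5, a TrkB co-receptor, was higher by 1.20 (adjusted p = 3.99e-14) and Mapk3, the ERK1 kinase, by 1.05 (adjusted p = 5.38e-16), while Shc1, an adaptor, was at -1.59 (adjusted p = 5.94e-07).

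Of 7 measured of 17 regulators of Bdnf transcription, 3 passed in VMH against the others (42.9%, against 33.1% of all genes), with a median of -0.01. Rest, a repressor of neuronal genes, was higher by 0.59 (adjusted p = 0.0226) and Usf2, an E-box binding factor, was at -0.66 (adjusted p = 0.00102). Bhlhe40, a repressor, was higher by 0.35 (adjusted p = 0.0928) and kept the threshold in 22 of 41 refits that left out 1 library. It lost it with depth as covariate (adjusted p = 0.106), median-of-ratios scaling (0.101) and no batch covariate (0.144). Of 9 measured of 20 activity and TrkB response genes, 6 were lower and 1 higher in VMH, with a median of -0.77, against 16.7% of all genes lower, 16.4% higher and a median of -0.02. The higher one was Nptx2, neuronal pentraxin 2, at 49.3 ± 10.4 CPM in VMH and 2.92 above the others (adjusted p = 1.79e-12). Among the lower ones were Npy (-1.94, adjusted p = 8.55e-07), which is the ARC marker above, and Vgf. Dusp5 was another (-1.06, adjusted p = 0.0363). Its VMH mean of 0.205 CPM lay under what 3 reads amount to in the median library (0.732 CPM), so its size depends on the pseudocount. The count was smaller against each nucleus alone, with 3 of 9 lower against ARC (14.8% of all genes), 4 against DMH (11.8%) and 5 against PVN (15.6%). Npy was lower against ARC alone (-6.63) and differed by 0.44 from DMH and 0.39 from PVN, which did not pass. Egr2, an immediate early transcription factor, was lower against DMH alone (-2.85), with -0.03 against ARC and -0.10 against PVN. Egr2, Dusp5 and the astrocyte markers named above were singled out after their values were seen.

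**Figure D5:**
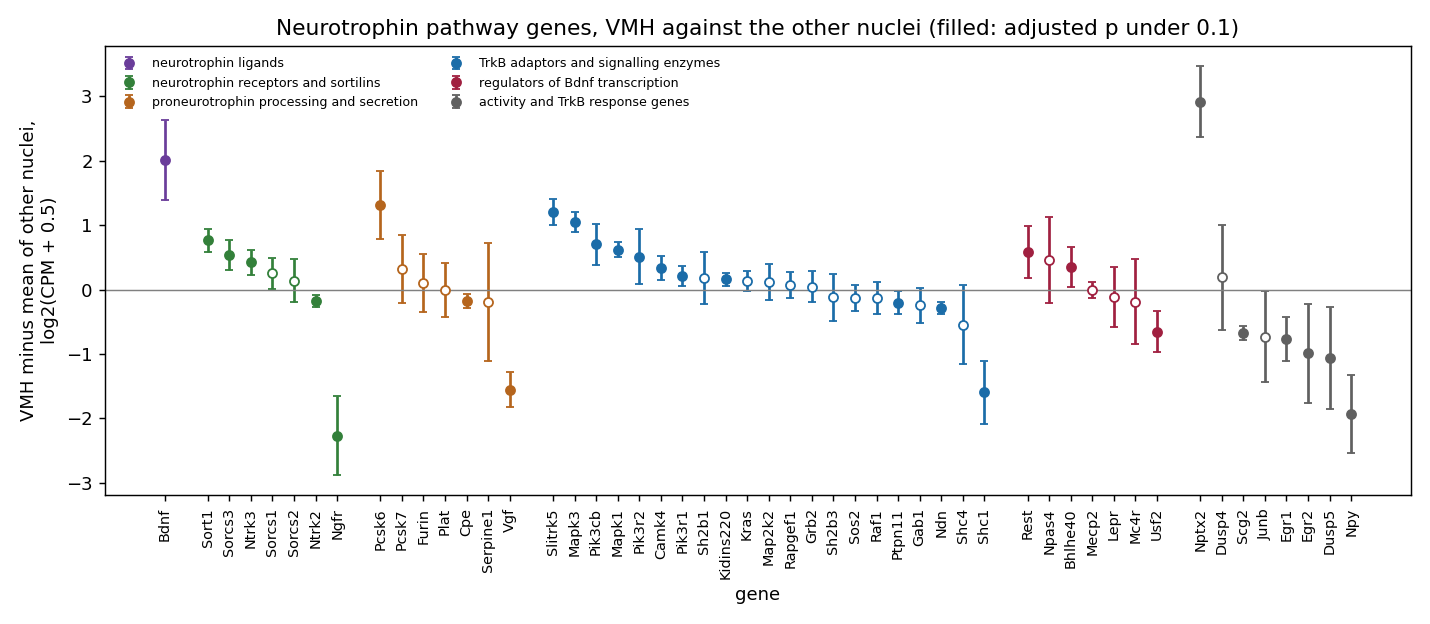
Difference of VMH from the mean of the other nuclei (log2(CPM + 0.5), y axis) for the measured genes of 6 neurotrophin lists, with 95% confidence intervals. Filled points passed the adjusted p threshold of 0.1 in limma. Bdnf (2.01) and Nptx2 (2.92) are the highest and Ngfr (-2.27) the lowest.

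With fasting, 4 genes of these lists passed the threshold, 4 of 48 tested in the ARC (0.176% of all genes) and 1 of 49 in the PVN (0.367%). The study had already reported a rise of Npy and Lepr with fasting in the ARC. The lists were chosen with earlier results of these data known, so these counts are not a test of the lists. Vgf rose in the PVN by 1.00 ± 0.17 (adjusted p = 0.0248), from 70.9 ± 26.9 to 161 ± 126 CPM (n = 5 and 5). Library PVN-86 held 383 CPM, and without it the fasted mean was 106 ± 24.1 CPM (n = 4) and the change 0.81 (adjusted p = 0.0656 in limma). In the ARC it rose by 0.91 ± 0.19 (adjusted p = 0.0867), from 59.0 ± 15.9 to 110.9 ± 33.3 CPM (n = 5 and 4). Its PVN call was lost without fasted PVN-100 (1.01, adjusted p = 0.151) and without the batch covariate (1.00, adjusted p = 0.728), with the change as large in both. In the ARC, Npy rose by 1.35 ± 0.16 (adjusted p = 0.00114), Lepr, the leptin receptor, by 1.49 ± 0.31 (adjusted p = 0.0867), and Bhlhe40 fell by 0.95 (SE 0.20, adjusted p = 0.0867). The ARC calls of Vgf, Lepr and Bhlhe40 each remained in 2 of 9 refits that left out 1 library. In these refits the changes were 0.79 to 1.07, 1.30 to 1.83 and -1.12 to -0.79. Calls of these genes were also lost with depth as covariate, no filter and a pseudocount of 0.1 (adjusted p from 0.128 to 0.142 in limma). None of the 4 ARC calls passed without the batch covariate, with changes of 0.90 (Vgf), 1.49 (Lepr), -0.90 (Bhlhe40) and 1.33 (Npy). None of the genes of these 6 lists tested in VMH (49) or DMH (50) passed for fasting.

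The genes whose levels ran most like those of the members were ranked by Pearson r across the 41 libraries, among 7638 genes averaging 5 CPM or more. The libraries share mice, nuclei and batches, so r is a description. For Bdnf the first 5 were Vstm2a (r = 0.80), Slit2 (0.79), an axon guidance ligand, Speer4a (0.78), Ripor2 (0.78) and Ephb1 (0.78), an ephrin receptor. After each nucleus was centred on its own mean, r was 0.25, 0.16, 0.49, 0.23 and 0.34 for these genes, so most of the likeness was the order of the nuclei. For Ntrk2 the genes given here are Rorb (r = 0.69), a nuclear receptor, AI593442 (0.69), Cck (0.68), cholecystokinin, and Rph3a (0.68), a synaptic vesicle protein, with centred values from 0.02 to 0.25. With pseudocounts of 0.1 and 2, the first 5 for Bdnf shared 4 and 3 genes with these.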

How the data were processed

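Hypothalamic nuclei were taken by laser capture from frozen sections, and total RNA was amplified (Ovation RNA-Seq System V2) before sequencing. The submitters' processing notes name CASAVA 1.7, TopHat2 2.0.11, Cufflinks 2.2.1, edgeR, limma and the GRCm38 build, and the study's methods state that outlier libraries were left out, which can narrow the spread within groups. CPM per Ensembl gene is what the authors deposited. The gene counter and its use of strand are not given in the sources used here. Symbols were found for 9891 of 10127 identifiers, and a block of identifiers with 6725 annotated genes was not analysed here. Columns were matched to 41 of 43 samples. For mice 85 (fasted) and 92 (fed), 2 columns carried an ARC name while the samples are labelled PVN, so these columns were not used and these 2 samples were not analysed here.

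Tests used limma 3.58.1 in R 4.3.3 (lmFit, eBayes with a trend) on log2(CPM + 0.5), which understates changes of low genes. A gene was kept if it reached 1 CPM in a number of libraries equal to the size of the smaller group. Fasting was tested within each nucleus with batch as covariate. Nuclei were compared in 1 fit of all libraries with 8 group means and batch. The Benjamini-Hochberg adjustment covered all genes tested, with a threshold of 0.1. On simulated data for the VMH fasting comparison, with 200 of 10016 genes changed 3-fold, 100% were recovered and 15 other genes were called. The changed genes averaged at least 5 CPM, the dispersion was fixed at 0.05, and no batch or mouse effect was simulated. The SD of Bdnf was 26.6% of its mean in fed VMH, 39.6% in fed PVN, 94.0% in fed DMH and 113% in fed ARC. This recovery was therefore not shown for genes as variable as Bdnf outside the VMH.

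Depth was read from the step between low CPM values, so that Bdnf and Ntrk2 were whole numbers of reads in every library within a tolerance of 0.05 reads. Some genes held fractions of a read, so no count test was run. The RNA was amplified, so reads are not separate molecules and read numbers cover counting error only.

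Libraries with the same mouse number in their titles came from the same mouse. Their deviations from the group means correlated with a median r of 0.059 (57 pairs), against 0.047 for other mice of the same batch. The fit with mouse as a block was an alternative. The others were pseudocounts of 0.1 and 2, no filter, a minimum mean of 5 CPM, median-of-ratios scaling, library weights, depth as covariate, no batch, and each library left out. The genes named were both members, measured neurotrophin ligands and receptors, list genes past the threshold with fasting, the 3 list genes with the largest VMH difference past the threshold, and the 5 genes most like each member, of which 1 for Ntrk2 is not reported here. The members and lists were chosen with earlier results of these data known. Sequences are from RefSeq GRCm38.p6.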

Additional observations from a re-analysis of the deposited data

Results flagged for a closer look

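Among the 16 groups of libraries examined for the members (chance gives about 1 in 20, or 0.8), 2 held a library far from the others. Bdnf in the fasted library ARC-86 was 12.5 CPM, against 0.402 to 1.97 CPM in the other 3. Ntrk2 in the fed library DMH-308 was 953 CPM, against 1096 to 1162 CPM in the other 5.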

How the results depend on the processing

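Of the fasting and nucleus comparisons of Bdnf and Ntrk2, the call that depended on the setting was Ntrk2 in ARC against PVN, at -0.11 with library weights (adjusted p = 0.196), -0.15 with depth as covariate (0.105) and -0.15 without batch (0.204), and from -0.17 to -0.11 with 1 library left out. Signs turned in differences that did not pass: Bdnf with fasting in ARC with depth as covariate (0.14), without batch (0.045) and with 1 library left out (-0.96 to 0.34), and in VMH with depth (0.055) and with 1 left out (-0.30 to 0.090); Ntrk2 with fasting in DMH with depth (-0.13), in PVN with library weights (0.035) and with 1 left out (-0.042 to 0.046), in VMH against the mean change of the other nuclei with median-of-ratios scaling (0.0018) and with 1 left out (-0.093 to 0.057), and in VMH against ARC with 1 left out (-0.058 to 0.016). The cause was not tested. With mouse as a replicate block, VMH against the other nuclei was 2.03 for Bdnf (adjusted p = 8.77e-07) and -0.19 for Ntrk2 (0.00150), and the block changed no call of either gene. No paired analysis was possible for fasting because no mouse was in both states. Genes passing for fasting numbered 17 in ARC (0 without batch, 24 with library weights), 1 in DMH (0 and 2), 35 in PVN (3 and 79) and 2 in VMH (1 and 5), and with 1 library left out 3–23, 1–2, 2–31 and 1–5. A mean of at least 5 CPM left no Bdnf value in ARC. Depth limits Bdnf in ARC, where the median was 7 reads.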
